A study of Mus musculus with 12 samples.

Results

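Kitl, Hgf, Edn3 and Asip encode 4 secreted or membrane-bound signals that the dermal papilla (DP), the cluster of mesenchymal cells at the base of the hair follicle, sends to melanocytes and to the matrix, the epithelium that builds the hair shaft. The 4 genes were looked up by name among the 15209 protein-coding genes of the P14 table and the 15334 of the P16 table, of which 14986 are in both, and followed in all 12 libraries. Of these, 3 were found under their own name. Asip was found by its Ensembl identifier, because the tables list it under its earlier symbol, a (nonagouti).

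KIT ligand, also called stem cell factor, binds the receptor KIT on melanocytes and is needed for their survival and migration. Hepatocyte growth factor is secreted as an inactive precursor, is cut by serine proteases, and acts on the receptor MET, which follicle keratinocytes and melanocytes carry. Endothelin 3 is cut from a precursor by furin and endothelin-converting enzymes and acts on the endothelin receptor type B of melanocyte precursors. Agouti signaling protein, the product of Asip, blocks the melanocortin 1 receptor and turns melanocytes from black eumelanin to yellow pheomelanin.

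DP cells were sorted from mouse skin by FACS for YFP, which the Cor-cre driver switches on in cells that have expressed Corin, and their RNA was sequenced. There were 3 control and 3 dMF1/2 mice at postnatal day 14 (P14) and as many at P16, all in anagen, the growth phase of the first hair cycle. The dMF1/2 mice carry Cor-cre/+; Fgfr1Flox/Flox; Fgfr2Flox/Flox and so lose both FGF receptors in the DP. The labels call the controls wild type, while the methods give them as Cor-cre/+; Fgfr1Flox/+; Fgfr2Flox/+ or as floxed mice without Cre. Both genotypes carry floxed receptor alleles and the ROSA26 YFP reporter, and since YFP needs Cre, cells sorted for it would come from controls of the first kind. The agouti allele of the mice is not given in the sources used here.

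Libraries held 19302358 to 29860750 reads over the listed genes. Fgfr1 had a log2 difference of -0.40 at P14 and -0.50 at P16 between dMF1/2 and control mice, with limma's adjusted p = 0.501 and 0.130, and that at P16 was called with the replicate number as a block (adjusted p = 0.0109), as were 10.4% of genes. Fgfr2 had differences of -0.11 and -0.01, and whole-gene counts also hold any exons outside the deleted part. P14 control replicate 1 and P14 dMF1/2 replicate 1 stood apart from the rest, with Col1a1 taking 7.06% and 9.15% of their reads against 13.1% to 17.7% in the other 10 libraries. The DP markers, 13 of 13 in the tables, summed to between 1867 and 7179 RPM (reads scaled to 1000000 a library), while follicle keratinocyte markers summed to at most 49.6 and immune markers to at most 18.0. The dermal fibroblast list summed to between 4931 and 8929 RPM.

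Asip was the member that differed most between genotypes. It was 20.4-fold lower in dMF1/2 than in control mice at P14 and 9.63-fold lower at P16, as ratios of the group means, and it passed the test at P16 but not at P14. The fitted log2 difference at P16, -3.70, was -4.49 without P16 dMF1/2 replicate 1 and -2.99 without P16 dMF1/2 replicate 2. Edn3 fell 3.46-fold in controls from P14 to P16 and at P16 its mean in dMF1/2 mice was 2.77-fold that of the controls. Hgf rose 1.58-fold in controls over the same days. Kitl passed the test in no comparison.

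Asip lies on chromosome 2, at chr2:154791402-155051012 of GRCm38, on the plus strand. Its RefSeq promoter window (build GRCm38.p6) is shown because Asip differed in all 3 dMF1/2 mice of each day, and the stretch chr2:155013320-155013471 of the plus strand, which holds no annotated exon, is printed below in lower case.

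Asip: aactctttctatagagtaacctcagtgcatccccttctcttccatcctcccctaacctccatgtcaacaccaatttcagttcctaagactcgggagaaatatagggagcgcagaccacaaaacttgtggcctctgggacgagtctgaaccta

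The RefSeq start used for Asip, chr2:155013570, lies inside the annotated span of the gene, and 152 of the 250 bases before it are printed. In these 250 bases, none of 5 short motifs was present on either strand. These were the TATA box (TATAAA), 2 forms of the core that TCF/LEF factors bind (CTTTGA and CTTTGT), the AP-1 site (TGANTCA) and the ETS core (CCGGAA). Among 32851 RefSeq promoters of this length, 12.4% held the TATA box, 13.8% and 16.5% held the TCF/LEF forms, 6.75% held the AP-1 site and 12.03% held the ETS core.

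At P14, Asip stood at 393, 98.6 and 550 normalized reads in control replicates 1, 2 and 3, and at 22.7, 11.7 and 16.7 in the dMF1/2 replicates. All 3 control libraries lay above all 3 dMF1/2 libraries, and control replicate 2 was the lowest of its group. The group means were 347 ± 229 and 17.0 ± 5.49 normalized reads (SD, n = 3 each). The log2 difference was -4.00 (SE 0.62, 95% interval -5.45 to -2.54), with an adjusted p = 0.135 by limma on log2(normalized reads + 1). In that comparison 0.0525% of the 13334 genes tested were called, 7 in all (0.015% higher and 0.0375% lower), and Asip was not among them. Same-numbered control and dMF1/2 libraries of a day deviated together, and with the replicate number as a block Asip was called (limma's adjusted p = 0.00315), as were 1.68% of genes. It was also called without P14 control replicate 2 (limma's adjusted p = 0.0377). With 1 library left out it stayed uncalled in 5 of 6 fits (limma's adjusted p up to 0.553).

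At P16, the control replicates held 618, 350 and 442 normalized reads of Asip and the dMF1/2 replicates 104, 12.1 and 30.7. The groups did not overlap at this day either, and dMF1/2 replicate 1 was the highest of the mutant libraries. Means were 470 ± 136 in control and 48.8 ± 48.4 in dMF1/2 mice (SD, n = 3 each). Asip was lower in dMF1/2 mice, with a log2 difference of -3.70 (SE 0.64, 95% interval -5.19 to -2.22) and limma's adjusted p = 0.0207. Calls were made for 4.32% of the 13457 genes tested at P16, 2.18% higher and 2.14% lower. Without P16 control replicate 3 the adjusted p of Asip was 0.0742, and without P16 dMF1/2 replicate 3 it was 0.0888.

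The low values of Asip rest on few reads, 27, 11 and 15 in the P14 dMF1/2 libraries and 96, 13 and 29 in those of P16. An exact two-sided permutation test of 3 libraries against 3 gave p = 0.1 for Asip at each day, the smallest it allows, and 12.7% of genes at P14 and 24.5% at P16 had groups that did not overlap. In bulk samples such as these, fewer cells of a type and less RNA per cell cannot be told apart.

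From P14 to P16 Asip passed the test in neither genotype. The log2 change was 0.68 in control (95% interval -0.89 to 2.25, limma's adjusted p = 0.546) and 0.97 in dMF1/2 mice (95% interval -0.60 to 2.54, adjusted p = 0.464). The control value rests on P14 control replicate 2, since without that library it was -0.06. The dMF1/2 value was 0.18 without P16 dMF1/2 replicate 1 and 1.68 without P16 dMF1/2 replicate 2, and was not called in either fit. Ordered on a scale shared by the 12 libraries, Asip was highest in P16 control, then P14 control, P16 dMF1/2 and P14 dMF1/2, and each group overlapped the next. P14 control and P16 dMF1/2 overlapped only through P14 control replicate 2 and P16 dMF1/2 replicate 1.

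Asip overlaps Raly, an RNA-binding protein gene on the same strand, by 147 exonic bases, so reads there could not be assigned to one of them. Raly, from 1663 to 2226 normalized reads over the 12 libraries, had log2 differences of -0.15 at P14 and -0.27 at P16, with limma's adjusted p = 0.869 and 0.180. Eif2s2 and Gm14226 lie within the same span and share no exonic base with Asip, and their differences at P14 and P16 were 0.03 and 0.05, and -0.21 and 0.50, none of them called.

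**Figure D1:**
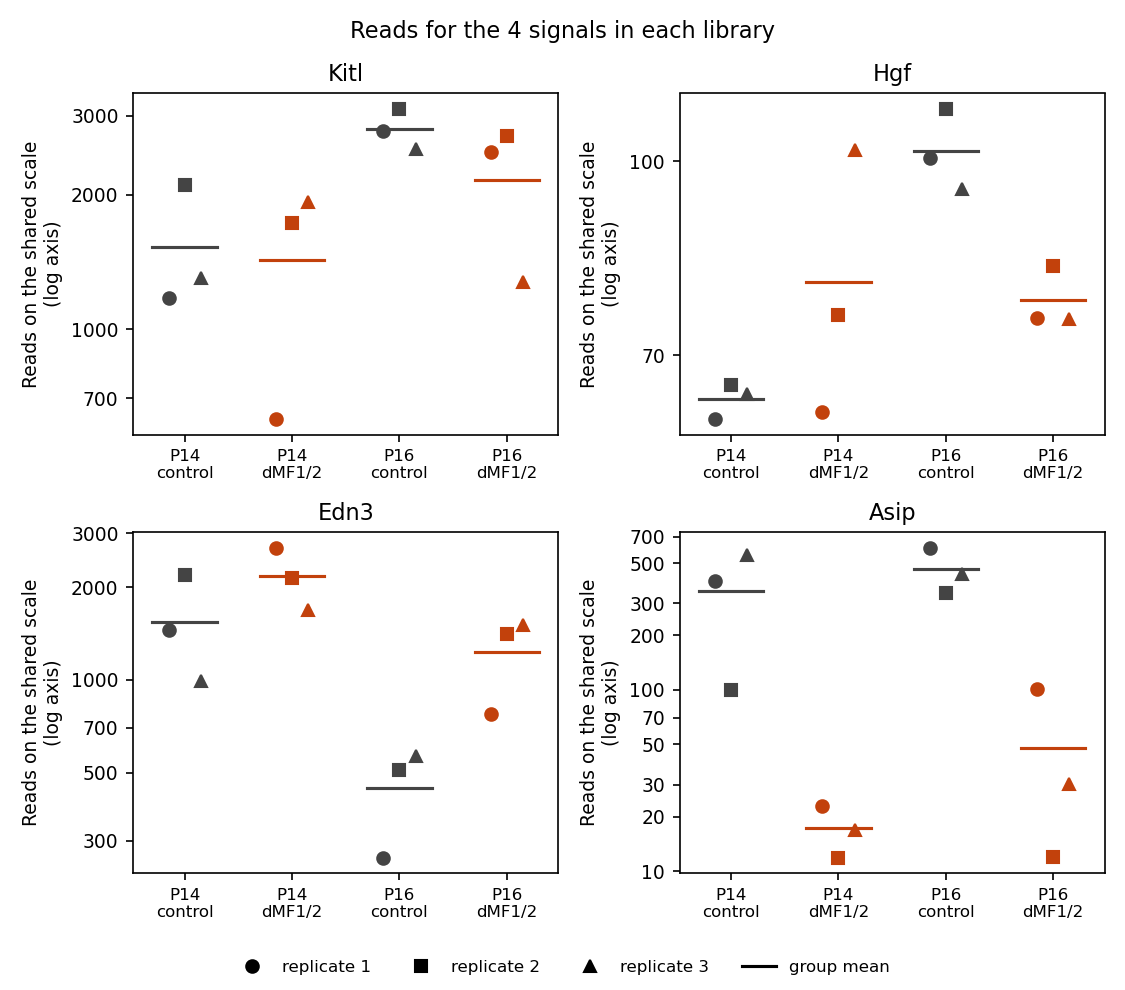
Reads of Kitl, Hgf, Edn3 and Asip in each of the 12 libraries (points, shape by replicate number), on a scale shared by both days and a log axis that does not start at 0, with the mean of each group as a bar. Asip is low in all 6 dMF1/2 libraries, with 5 of them under every control library, and Edn3 is lowest in the 3 P16 control libraries.

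Edn3 spans chr2:174760619-174784042 on the plus strand. Its promoter is shown because Edn3 differed both between days and between genotypes. The 250 bases before its start (chr2:174760369-174760618 of GRCm38.p6, plus strand, from RefSeq) are given in lower case, with the one motif match in capitals.

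Edn3: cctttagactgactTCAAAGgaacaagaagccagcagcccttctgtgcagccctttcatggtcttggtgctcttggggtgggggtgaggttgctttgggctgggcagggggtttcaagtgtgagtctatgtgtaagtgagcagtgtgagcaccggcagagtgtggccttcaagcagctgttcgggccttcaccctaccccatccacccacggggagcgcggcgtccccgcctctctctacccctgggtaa

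The capitals mark TCAAAG, the reverse complement of the TCF/LEF core CTTTGA, which thus lies on the minus strand, at position -236 from the start (chr2:174760383-174760388). The other motifs searched had no match. Such a match is a description of the letters and was not tested for binding.

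The control libraries held 1429, 2161 and 976 normalized reads of Edn3 at P14 and 268, 516 and 574 at P16. Each P16 control library was below each P14 control library, so the days did not overlap, as for 36% of genes. On the shared scale the means were 1543 ± 607 and 446 ± 160 reads (SD, n = 3 each), a log2 change of -1.79 (SE 0.36, 95% interval -2.57 to -1.005) with limma's adjusted p = 0.0101. Between these days 14.5% of 13415 genes were called in controls, 8.28% lower and 6.26% higher. Edn3 remained called when any of the 12 libraries was left out, with limma's adjusted p between 0.00789 and 0.0401.

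In dMF1/2 mice the Edn3 values were 2651, 2124 and 1675 normalized reads at P14 and 794, 1434 and 1537 at P16. The ranges of the days did not overlap, as for 27.6% of genes, but replicates 2 and 3 of P16 came close to the lowest P14 library. Its log2 change was -0.85 (SE 0.36, 95% interval -1.64 to -0.07) with limma's adjusted p = 0.179, and 5.8% of genes were called in that comparison, 1.83% higher and 3.97% lower. The change in dMF1/2 mice differed from that in controls by 0.93 (95% interval -0.17 to 2.04, limma's adjusted p = 0.999996), so that a difference between the changes was not shown.

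Between genotypes, Edn3 at P14 had a log2 difference of 0.55 (SE 0.29, 95% interval -0.15 to 1.24, limma's adjusted p = 0.810), and the groups overlapped. At P16 the means were 453 ± 163 normalized reads in control and 1255 ± 403 in dMF1/2 mice (SD, n = 3 each). The 3 dMF1/2 libraries were all above the 3 control libraries, with no overlap, as for 24.5% of genes. The log2 difference was 1.48 (SE 0.33, 95% interval 0.72 to 2.25, limma's adjusted p = 0.0472). This call depended on most single libraries. It was lost without P16 control replicate 1 (limma's adjusted p = 0.0629), control replicate 2 (0.0558), control replicate 3 (0.0743), dMF1/2 replicate 2 (0.130) or dMF1/2 replicate 3 (0.158), and the difference then lay between 1.15 and 1.69. In order of level, Edn3 ran from P14 dMF1/2 through P14 control and P16 dMF1/2 to P16 control, and only the last of these neighbours did not overlap.

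The DP markers moved beside Edn3. Their summed level was 1867 to 3170 RPM in P16 control and 3409 to 5155 in P16 dMF1/2 libraries, with no overlap, and none of the 13 markers was at 0. At P16, 4 of the 13 were called higher (Alpl, Bmp6, Fgf10 and Prom1) and 1 lower (Crabp1), against 2.18% and 2.14% of all genes, with a median log2 difference of 0.98 against -0.00 over all genes tested. From P14 to P16 in controls, 5 were lower (Alpl, Bmp6, Corin, Fgf10 and Fgf7), against 8.28% of all genes, with a median change of -0.85 against 0.01 over all genes. Their part in the Edn3 result was not tested. The counts at P16 ranged from 2 to 4 higher and 0 to 2 lower when 1 library was left out, and with the replicate number as a block they were 9 and 2. The 5 lower in controls became 2 when P14 control replicate 1 was left out, 3 when P16 control replicate 1 was, 3 with only the compared libraries in the fit, 7 without P14 dMF1/2 replicate 1 or with the block, and 8 by DESeq2.

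**Figure D2:**
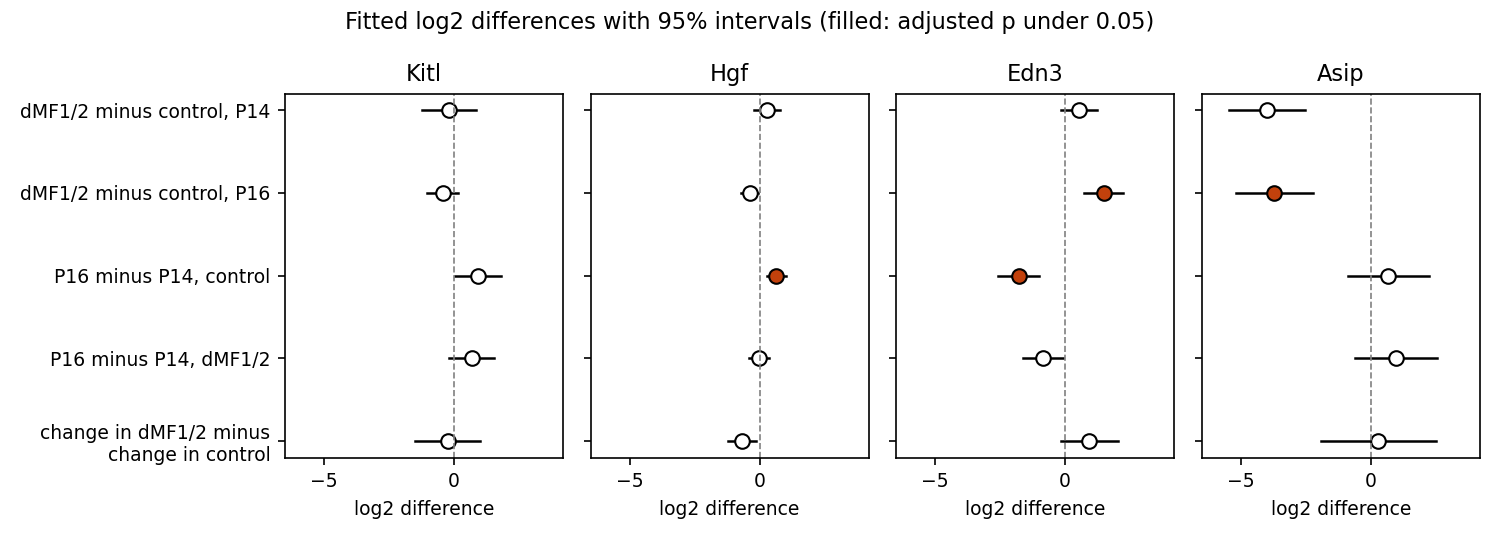
Fitted log2 differences (points) of the 4 genes in the 5 comparisons, with 95% intervals from limma as lines. Filled points have an adjusted p under 0.05, namely Edn3 and Asip between genotypes at P16, and Edn3 and Hgf between days in controls.

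Hgf, at chr5:16553495-16620152 on the plus strand, had the lowest mean level per length of the 4 genes in each of the 4 groups. Its level was 0.400 RPM per kilobase of exon in P14 control and 0.581 in P16 control, against 11.2 and 19.4 for Kitl, 16.7 and 4.50 for Edn3 and 13.6 and 16.1 for Asip. In dMF1/2 mice Hgf stood at 0.478 at P14 and 0.462 at P16, where Asip stood at 0.661 and 1.77, and on this scale the ranges of these 2 genes in dMF1/2 mice overlapped at both days.

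In controls the Hgf libraries held 61.5, 65.4 and 64.4 normalized reads at P14 and 102, 112 and 96.3 at P16. The 3 libraries of each day lay close together and the days did not overlap, as for 36% of genes. Hgf rose by 0.65 on the log2 scale (SE 0.17, 95% interval 0.28 to 1.02, limma's adjusted p = 0.0291). The call was lost when any single control library was left out, P14 or P16, with limma's adjusted p between 0.0510 and 0.0890, and without both P14 replicate 1 libraries it was 0.0558. Endothelial markers went both ways over these days. In controls, 2 of 8 were higher at P16 (Vwf and Emcn) and 1 lower (Tek), against 6.26% and 8.28% of all genes. Their median log2 change was 1.43 against 0.01 over all genes, and their part in the Hgf result was not tested. That median includes genes with few reads in controls. Emcn held 3 to 4 reads at P14 and 20 to 36 at P16, and Cldn5 held 4 to 8 and 8 to 75. The summed endothelial level was 40.3 to 79.4 RPM in P14 control and 27.4 to 64.7 in P16 control libraries, and none of the 8 was at 0.

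In dMF1/2 mice Hgf stood at 62.2, 74.7 and 101 normalized reads at P14 and at 76.7, 84.0 and 76.2 at P16. P14 dMF1/2 replicate 3 lay within the range of the P16 controls, and the days overlapped, with a log2 change of -0.02 (95% interval -0.40 to 0.35, limma's adjusted p = 0.957). Compared with controls, the dMF1/2 value differed by 0.28 on the log2 scale at P14 (95% interval -0.21 to 0.78, adjusted p = 0.900) and by -0.38 at P16 (95% interval -0.72 to -0.05, limma's adjusted p = 0.193). At P16 the groups did not overlap, as for 24.5% of genes, with every dMF1/2 library below every control library. The changes of the 2 genotypes differed by -0.67 (95% interval -1.20 to -0.14) with an unadjusted p = 0.0171 and limma's adjusted p = 0.999996. Over all genes none was called for such a difference, while 648 had an unadjusted p under 0.05 and DESeq2 called 7.

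Kitl spans chr10:100015630-100100413 on the plus strand. A TATA box and an ETS core lie at positions -25 and -77 from its RefSeq start, chr10:100015821, which is inside the annotated gene. Both matches, at chr10:100015796-100015801 and chr10:100015744-100015749, lie after the annotated gene start. They are outside the stretch with no annotated exon, chr10:100015571-100015629. In the RefSeq promoter of Hgf none of the 5 motifs was found. Kitl stood at 1157, 2068 and 1283 normalized reads in P14 control and at 620, 1716 and 1907 in P14 dMF1/2 libraries. The groups overlapped widely, and dMF1/2 replicate 1 was the lowest of all. The log2 difference was -0.20 (SE 0.44, 95% interval -1.23 to 0.83, limma's adjusted p = 0.994), and its sign turned without P14 control replicate 2 (0.06), without P14 dMF1/2 replicate 1 (0.32) or without both replicate 1 libraries (0.15).

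At P16 the Kitl libraries held 2814, 3162 and 2566 normalized reads in control and 2544, 2753 and 1301 in dMF1/2 mice. Only dMF1/2 replicate 3 stood well under the control range. The difference was -0.44 (SE 0.26, 95% interval -1.04 to 0.15, limma's adjusted p = 0.420). It was -0.64 without P16 dMF1/2 replicate 2 and -0.10 without P16 dMF1/2 replicate 3. Between days, each P16 control library was above each P14 control library, with no overlap, as for 36% of genes. The means differed 1.84-fold, with a log2 change of 0.92 (SE 0.40, 95% interval 0.04 to 1.80) and limma's adjusted p = 0.139. Without P14 dMF1/2 replicate 1, which enters only through the shared estimate of the spread and the filter, that adjusted p was 0.0452. In dMF1/2 mice the change was 0.68 (95% interval -0.20 to 1.56, limma's adjusted p = 0.349). That change was 0.17 without P14 dMF1/2 replicate 1 and 1.02 without P16 dMF1/2 replicate 3. From highest to lowest, Kitl ran P16 control, P16 dMF1/2, P14 control and P14 dMF1/2, with every neighbouring pair overlapping.

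The receptors of the 4 signals were read in the same sorted cells. Ednrb, the endothelin 3 receptor, was the most abundant by reads, at 5152 ± 763 normalized reads in P14 control and 3925 ± 2482 in P16 control (SD, n = 3 each). Its genotype differences were -0.26 at P14 and 0.17 at P16, neither called. Met, the receptor of hepatocyte growth factor, ranged from 136 to 282 normalized reads and had differences of -0.04 and -0.01. Mc1r, which Asip blocks, ranged from 12.8 to 45.4, with differences of -0.02 and -0.19.

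Kit, the receptor of KIT ligand, stood at 29.8, 19.3 and 31.2 normalized reads in P14 control and 89.9, 68.4 and 82.1 in P16 control libraries. These rest on 18 to 32 and 66 to 103 reads, and Kit rose by 1.53 on the log2 scale between the days (SE 0.31, 95% interval 0.85 to 2.21, limma's adjusted p = 0.0108). In dMF1/2 mice it stood at 23.5, 34.1 and 17.8 at P14 and 54.0, 31.7 and 27.5 at P16. All 3 of these P16 libraries lay below the controls, with no overlap, as for 24.5% of genes. The genotype difference at P16 was -1.12 (SE 0.27, 95% interval -1.75 to -0.49, limma's adjusted p = 0.0622), and it was called with the replicate block (adjusted p = 0.0240), by DESeq2 (adjusted p = 0.0115) and without P16 dMF1/2 replicate 1 (limma's adjusted p = 0.0265). It stayed uncalled in 7 of 9 alternatives, and in 5 of 6 fits with 1 library left out (limma's adjusted p up to 0.177).

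Melanocyte markers were low in these libraries. Of the 15 listed, 12 are in the tables, and none was at 0 in every library of a group. Dct was covered by 0 to 14 reads a library, Tyrp1 by 0 to 9, Sox10 by 1 to 15, Mlana by 3 to 27, Pmel by 8 to 30 and Tyr by 19 to 60. Together these 6 genes, which encode the pigment enzymes and other melanocyte proteins, made up 1.78 to 4.13 RPM, with 2.74 to 3.58 in P16 control and 3.02 to 3.50 in P16 dMF1/2 libraries. Most of the summed list, 105 to 365 RPM, came from Ednrb, with 2017 to 6429 reads a library, and Mitf, with 470 to 834. Of the 8 listed genes tested between days, Kit and Mitf rose in controls, against 6.26% of all genes. By limma with all libraries and no replicate block, none was called between genotypes at either day, and the settings under which Kit was called at P16 are given above. The part of these markers in the Kit values was not tested.

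Ednra, the endothelin receptor type A, was the one partner gene called between genotypes by limma with all libraries and no replicate block. It held 1572, 2271 and 2022 normalized reads in P16 control and 3205, 3611 and 3728 in P16 dMF1/2 libraries, with no overlap, as for 24.5% of genes. Its log2 difference at P16 was 0.86 (SE 0.14, 95% interval 0.54 to 1.18, limma's adjusted p = 0.0162). Leaving out P16 control replicate 3, dMF1/2 replicate 2 or dMF1/2 replicate 3 raised that adjusted p to 0.0567, 0.0528 and 0.0721. At P14 the difference was 0.42 (limma's adjusted p = 0.397, or 0.0357 with the replicate block).

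The partner list held 34 receptors, related ligands, proteases, inhibitors and agouti modifiers, of which 27 are in both tables and 24 passed the mean of 10 reads in each comparison. None was called at P14, 1 of 24 was higher at P16, and from P14 to P16 2 of 24 rose and 4 fell in controls while none was called in dMF1/2 mice. Over all genes tested, 0.0525% were called at P14, 2.18% were higher at P16, 6.26% rose and 8.28% fell in controls, and 5.8% were called in dMF1/2 mice. With the replicate block, 1 partner was higher at P14, and 3 were higher and 2 lower at P16, where 1.68% and 10.4% of all genes were called. By DESeq2, 2 were higher and 1 lower at P16 and 2 fell in dMF1/2 mice, and leaving out 1 library gave 0 to 2 higher and 0 to 1 lower at P16. The counts in controls became 1 rise and no fall without P14 control replicate 1, 1 and 1 without P16 control replicate 1 or without both P14 replicate 1 libraries, and 1 and 2 with only the compared libraries in the fit. With any 1 library left out they ran from 1 to 2 rises and 0 to 5 falls. The median of the partners, as a log2 difference, was -0.03 at P14 and 0.10 at P16, and their median change in controls was -0.16, against 0.00, -0.00 and 0.01 over all genes tested.

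Among the genes that act on hepatocyte growth factor, Plat, tissue plasminogen activator, fell by 1.08 on the log2 scale in controls (SE 0.25, limma's adjusted p = 0.0183). It stood at 1285, 925 and 761 normalized reads in P14 control and at 353, 581 and 510 in P16 control libraries. The days did not overlap, as for 36% of genes. The call was lost without P14 or P16 control replicate 1 (limma's adjusted p = 0.0702 and 0.0733).

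Of the enzymes that process endothelins, Furin, a proprotein convertase, fell by 0.45 (limma's adjusted p = 0.0333) and Ece2, an endothelin-converting enzyme, fell by 0.63 (adjusted p = 0.0283) in controls between the days. Leaving out 1 library ended the call of Furin in 5 of 12 fits and that of Ece2 in 4, with limma's adjusted p up to 0.117 and 0.0960. Without both P14 replicate 1 libraries, Furin, Ece2 and Plat missed the threshold (limma's adjusted p = 0.0589, 0.0800 and 0.0691). The related ligand Edn1 had a change of 0.06 and was not called.

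Corin encodes a protease of the DP that lowers the effect of agouti on coat colour, and it is also the locus of the Cor-cre allele. It held 38723, 30193 and 20522 normalized reads in P14 control and 2776, 12352 and 7518 in P16 control libraries. All P16 controls were below all P14 controls, with no overlap, as for 36% of genes. The log2 change was -2.22 (SE 0.47, limma's adjusted p = 0.0133), and the adjusted p was 0.0519 without P14 control replicate 1 and 0.0527 in a fit of the control libraries alone. The change was -1.62 without P16 control replicate 1, the lowest of that group, and -2.70 without P16 control replicate 2. In P16 dMF1/2 libraries Corin held 15324, 22638 and 27358 normalized reads, each above the controls of that day, with no overlap, as for 24.5% of genes. The genotype difference was 1.73 (SE 0.49, limma's adjusted p = 0.0938), and with the replicate block it was called (adjusted p = 0.0105). The other agouti pathway genes, Atrn, Mgrn1, Tbx15 and Sox2, were called in no comparison by limma with all libraries and no replicate block. With the replicate block Sox2 was called at P16 (limma's adjusted p = 0.0148, or 0.0635 without) and between days in controls (0.0432, or 0.0622 without).

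**Figure D3:**
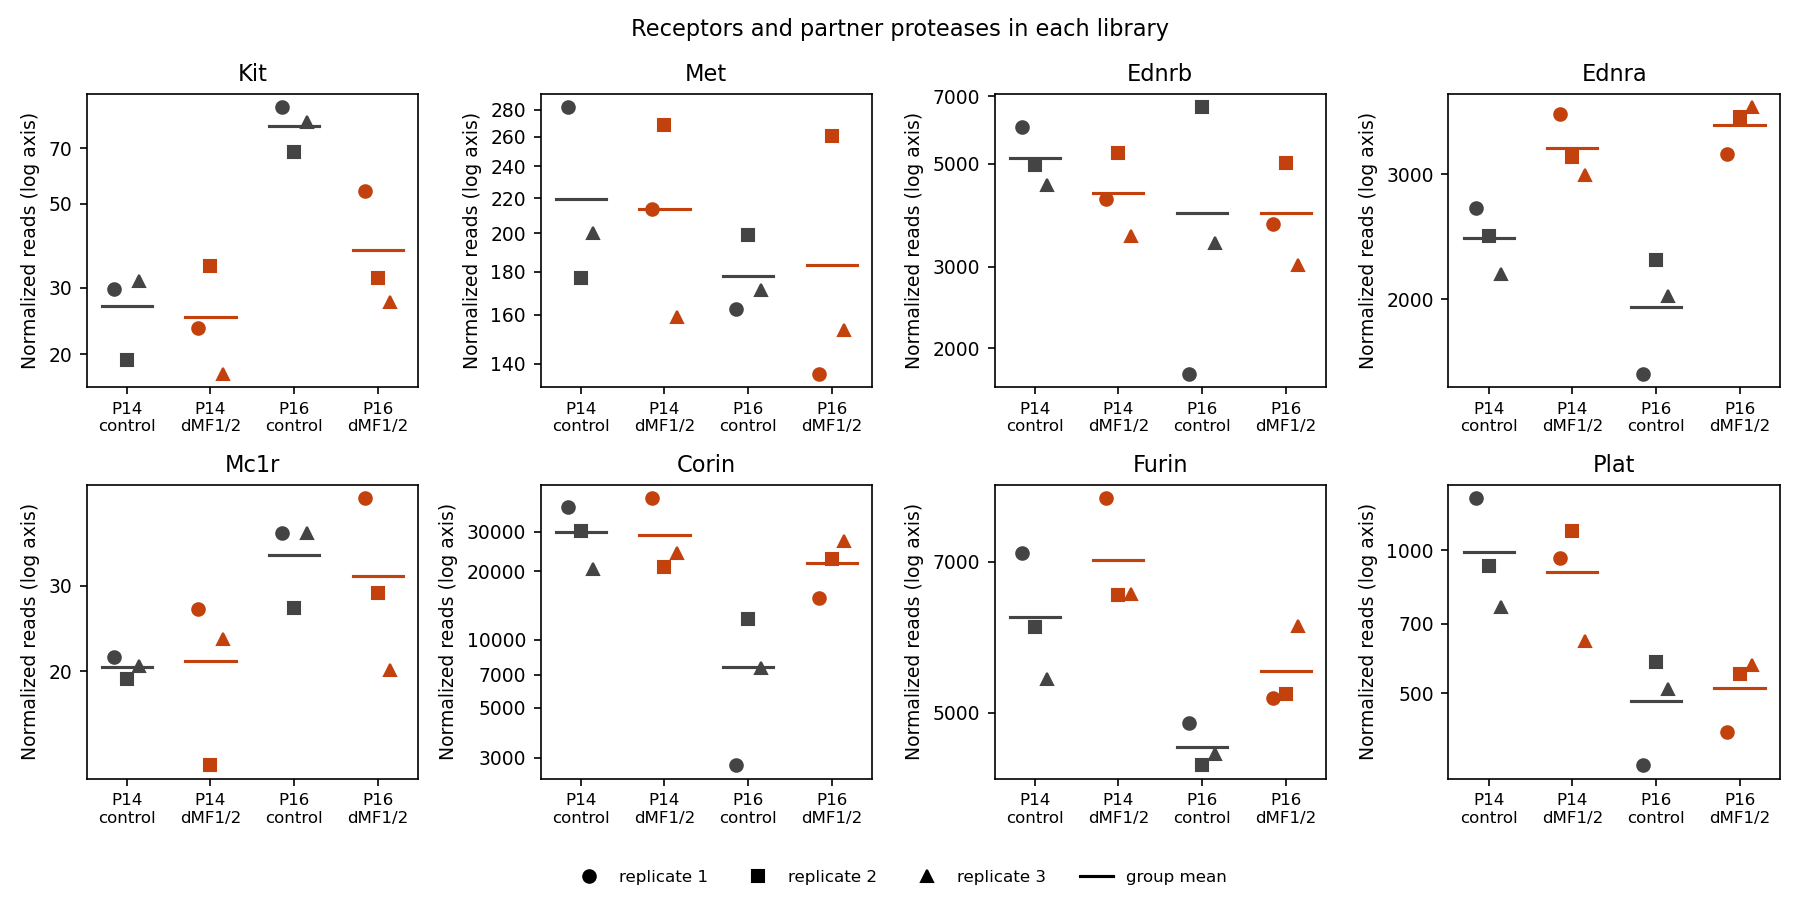
Normalized reads of 5 receptors (Kit, Met, Ednrb, Ednra and Mc1r) and 3 partner proteases (Corin, Furin and Plat) in each library, on log axes that do not start at 0, with bars at the group means and each day in its own scaling. Kit is highest in the 3 P16 controls, Ednra is higher in every P16 dMF1/2 library than in the controls of that day, and Corin is lowest in the P16 controls.

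Genes whose levels ran most like each member were picked by Pearson's r of log2 levels over the 12 libraries, which share their depth and groups, and r is given as a description. For Asip these included Lcn2 (0.981) and Ptgir (0.9749), which encode lipocalin 2 and the prostacyclin receptor. Lcn2 held 186, 54.7 and 198 normalized reads in P14 control libraries against 6.67 to 15.97 in P14 dMF1/2, and 217 to 233 against 8.40 to 70.2 at P16. As the choice by r favours, it was, like Asip, lowest among controls in P14 replicate 2 and highest among the mutants in P16 replicate 1.

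For Edn3 the most alike genes were Trpm3 (0.980), Amph (0.9745) and Lingo2 (0.967), which encode a cation channel, amphiphysin and a leucine-rich repeat membrane protein. Trpm3 ran from 55.9 to 82.1 normalized reads in P16 control libraries and from 111 to 218 in P16 dMF1/2. For Kitl they were Gm16867 (0.935), Nln (0.926) and Commd3 (0.923), and for Hgf Mfap1b (0.905), Emcn (0.891) and Dr1 (0.872). Emcn, an endothelial sialomucin, held between 2 and 36 reads in these libraries.

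Within groups, the libraries with much Asip were often those with little Edn3. In P14 controls the order was exactly opposite, with replicate 2 lowest in Asip and highest in Edn3. In P16 controls and in P16 dMF1/2 mice, replicate 1 was highest in Asip and lowest in Edn3. In P14 dMF1/2 mice replicate 1 was highest in both. This relation was not tested.

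**Figure D4:**
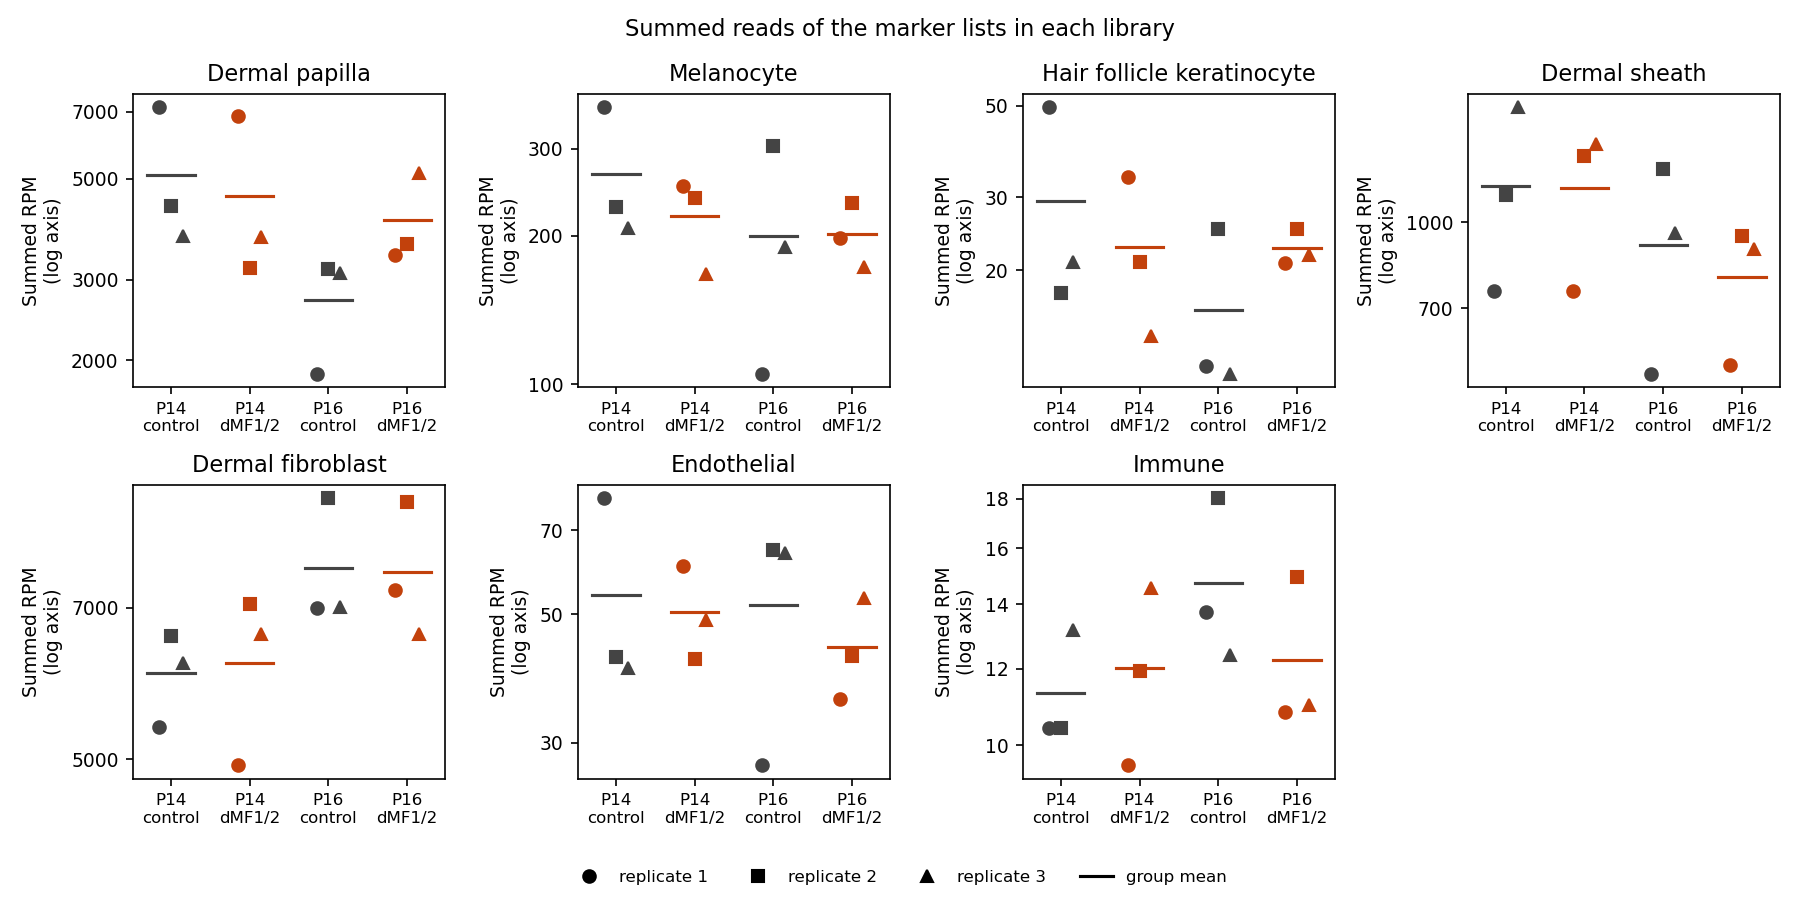
Summed RPM of the marker lists of 7 cell types in each library, on log axes that do not start at 0, with bars at the group means. The DP list is 1867 to 3170 in P16 control and 3409 to 5155 in P16 dMF1/2 libraries, and the keratinocyte and immune lists stay under 50 in all 12.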

How the data were processed

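RNA of sorted DP cells was analysed from 12 libraries, 3 a group. Per the labels and the methods, the authors depleted ribosomal RNA, made stranded libraries, used Trimmomatic for trimming, TopHat2 for mapping to mm10, HTSeq for counting on Ensembl GRCm38.p4 genes and DESeq2 for normalization. The deposited signal values are reads divided by size factors, per day. Whole reads were recovered from 100% of values (within 0.01). The authors' fold changes and test columns were not used. The members and gene lists were chosen with earlier results of these data known. Same-numbered mice are not stated to be related.

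Genotypes were compared within a day by limma 3.58.1 (R 4.3.3) on log2(normalized reads + 1), keeping genes that averaged 10 or more, with a trend and Benjamini-Hochberg adjustment at 0.05. Changes between days and their difference came from 1 fit of 4 groups, on reads of 14986 shared genes rescaled by median of ratios. Fold changes on this scale are understated for low genes. P-values measure the spread between these libraries only. Named genes were the 4 members, the receptors Kit, Met, Ednrb and Mc1r, partners called in any comparison, and the 3 genes most like each member, of which 2 genes in all are not reported here. Neighbouring Raly, Eif2s2 and Gm14226, Edn1, Atrn, Mgrn1, Tbx15 and Sox2, and single marker genes, were named after their values were seen. Levels per length used merged exon lengths of GENCODE (5911, 7186, 4113 and 1169 bases for Kitl, Hgf, Edn3 and Asip). Promoters were RefSeq's.

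Whether replicate numbers pair libraries was checked by correlating deviations from group means across genes: same-numbered libraries of a day gave 0.266 to 0.573, every one over 0.1, so the number was used as a block within a day as an alternative. Further alternatives were edgeR 4.0.16 and DESeq2 1.42.0 on the recovered reads, TMM scaling, pseudocounts of 0.1 and 10, no filter, at least 10 reads in every library, other libraries in the fit and leaving out each library. Leaving out both P14 replicate 1 libraries was added after seeing the data. The fits were tested on simulated data with the same spread for every gene. That simulation held no link between same-numbered libraries and no library that stood apart, so it cannot speak to those features.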

Additional observations from a re-analysis of the deposited data

How the results depend on the processing

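The genes called numbered 7 at P14, but 207 by DESeq2, 11 in a joint fit of the 12 libraries and 224 with the replicate block, and 582 at P16, but 1121 by DESeq2 and 1403 with the block. Asip at P14 passed with DESeq2 (-4.34, adjusted p = 8.64e-12) and with the block (-4.00, limma's adjusted p = 0.00315). Between days, the counts of 1951 in controls and 778 in dMF1/2 mice became 806 and 322 with only the compared libraries in the fit, 1331 by DESeq2 in dMF1/2 mice, and 951 in controls without both P14 replicate 1 libraries, which also gave Hgf 0.62 (limma's adjusted p = 0.0558) and Kitl at P14 0.15. The differences of the changes numbered 0, but 7 by DESeq2 and 2 without both P14 replicate 1 libraries. By edgeR the counts were 7, 603, 2021, 768 and 0, and its calls of the 4 genes were as by limma. The block changed no other call of the 4 genes. With 1 library left out, the counts ran from 0 to 18 at P14, 149 to 684 at P16, 693 to 2129 in controls, 257 to 861 in dMF1/2 mice and 0 to 2 for their difference. Log2 values then ran as follows. Asip lay between -4.74 and -3.50 at P14, -4.49 and -2.99 at P16, -0.063 and 1.17 between days in controls, and -0.49 and 1.03 for the difference of changes. Edn3 lay between 1.15 and 1.79 at P16 and -2.07 and -1.45 in controls. Hgf lay between 0.59 and 0.70 in controls and -0.18 and 0.16 in dMF1/2 mice. Kitl lay between -0.49 and 0.32 at P14, 0.76 and 1.18 in controls, and -0.76 and 0.094 for the difference of changes. The causes of these shifts were not tested. Depth limits Asip in dMF1/2 mice, at 11 to 96 reads, and Kit.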
